A study of Mus musculus with 2 samples.

Results

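The cells described here were microglia of the injured mouse spinal cord that carried many transcripts of 4 cytokine genes, Tnf, Il12b, Cxcl2 and Tnfsf9. A barcode was kept with at least 500 genes, at least 1000 UMIs (unique molecular identifiers, each standing for 1 captured transcript) and at most 15% of UMIs in mitochondrial genes. A member then had at least 5 UMIs summed over the microglia genes P2ry12, Tmem119, Gpr34 and Siglech, and at least 5 UMIs summed over the 4 cytokine genes. It also had fewer than 3 UMIs of the cycling genes Mki67 and Top2a, and fewer than 3 of the border macrophage genes Lyve1, Cd163, Mgl2 and Fcna. The rule found 545 cells of 5145 kept barcodes. Another 380 cells met every condition except the cytokine threshold and are called the other microglia. The members were therefore chosen by their own cytokine counts, and the high level of those 4 genes in them is the rule and not a finding.

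Single cells were captured with the 3' gene expression version 3 kit of 10x Genomics from mouse spinal cord 5 days after an injury. One library came from cord treated with an inhibitor of HDAC3 (histone deacetylase 3) and 1 library from vehicle-treated cord. The compound, the strain, age and genotype of the mice, and how many animals went into a library are not stated in the labels. With 1 library per group no test between treatments was possible, and none was made.

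Microglia are the resident macrophages of the central nervous system, and in the uninjured cord they are marked by the purinergic receptor P2ry12 and the membrane protein Tmem119. Tissue damage and microbial products reach them through Toll-like and interleukin-1 receptors, which release NF-kappaB (the transcription factor family that includes Rela, Rel and Nfkb1) from its inhibitor Nfkbia. NF-kappaB and the AP-1 factors Fos and Jun then switch on genes for tumour necrosis factor (Tnf), interleukin 1 and chemokines, together with genes such as Tnfaip3, Nfkbia and Zfp36 whose products shut the response down again. HDAC3 acts in nuclear corepressor complexes and is known to control parts of this programme in macrophages.

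The HDAC3 inhibitor library held 278 members, 184 other microglia and 2975 kept barcodes of 3423 deposited. The vehicle library held 267 members, 196 other microglia and 2170 kept barcodes of 2523 deposited. The libraries shared 4 kept barcode sequences, and none of these was a member in both. Members were deeper than the other microglia, with a median of 12586 and 14205 UMIs per cell (HDAC3 inhibitor and vehicle library, the order used throughout) against 8601 and 9933. Median mitochondrial shares were alike, 3.30% and 3.67% in members against 3.50% and 3.49%. Summed over members the libraries held 3987666 and 4363199 UMIs, and over the other microglia 2053182 and 2403442. Every level below is in CPM, the UMIs of a gene per 1000000 UMIs summed over the cells of a group, and every range in parentheses after a ratio is its 95% interval. These intervals cover counting error only, since cells of 1 library are not replicates.

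The promoters of 4 genes that the results turn on are shown first, because NF-kappaB is the factor through which this programme is classically switched on. Each is the 250 bases before the RefSeq start in the mouse build GRCm38.p6, written 5′ to 3′ on the strand of the gene. Capitals mark a match to the NF-kappaB consensus on either strand, and in Cxcl10 also a match to the AP-1 motif TGANTCA.
Tnf, chr17:35202008-35202257, minus strand: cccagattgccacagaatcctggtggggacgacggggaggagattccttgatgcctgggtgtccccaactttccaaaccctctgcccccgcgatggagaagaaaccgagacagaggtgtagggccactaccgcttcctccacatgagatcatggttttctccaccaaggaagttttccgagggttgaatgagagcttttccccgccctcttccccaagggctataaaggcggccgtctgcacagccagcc
Cxcl2, chr5:90903649-90903898, plus strand: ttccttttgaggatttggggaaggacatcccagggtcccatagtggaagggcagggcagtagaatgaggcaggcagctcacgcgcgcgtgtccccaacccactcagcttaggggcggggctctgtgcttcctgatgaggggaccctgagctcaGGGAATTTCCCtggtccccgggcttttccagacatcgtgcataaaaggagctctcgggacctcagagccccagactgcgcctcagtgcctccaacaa
Cxcl10, chr5:92348890-92349139, minus strand: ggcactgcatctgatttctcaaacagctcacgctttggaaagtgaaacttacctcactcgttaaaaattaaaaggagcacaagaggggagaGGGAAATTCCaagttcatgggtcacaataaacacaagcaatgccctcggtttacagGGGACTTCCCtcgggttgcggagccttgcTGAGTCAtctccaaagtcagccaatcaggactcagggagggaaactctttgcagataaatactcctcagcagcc
Nfkbia, chr12:55492648-55492897, minus strand: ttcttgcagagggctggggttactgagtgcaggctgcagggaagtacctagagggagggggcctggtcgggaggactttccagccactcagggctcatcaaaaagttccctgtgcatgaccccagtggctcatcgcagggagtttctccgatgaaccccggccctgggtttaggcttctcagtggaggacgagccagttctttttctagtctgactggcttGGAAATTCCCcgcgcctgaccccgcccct
The Cxcl2 window held 2 overlapping NF-kappaB matches, 97 and 96 bases before the start. The Cxcl10 window held NF-kappaB matches 159 and 103 bases before the start and an AP-1 match 74 bases before it. The Nfkbia window held 1 NF-kappaB match, 29 bases before the start. The Tnf window held neither motif within these 250 bases. Of 13 genes looked up, 11 had a window, 4 of them (Cxcl2, Cxcl10, Nfkbia and Tnfaip3) with an NF-kappaB match and 3 (Cxcl10, Tnfaip3 and Il1rn) with an AP-1 match. Over all 32851 windows of this length, 3.90% held the NF-kappaB consensus and 6.75% the AP-1 motif. A match is a description of the letters and shows no binding.

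Members made up 60.2% of microglia in the HDAC3 inhibitor library (278 of 462, Clopper-Pearson 95% interval 55.5 to 64.7%) and 57.7% in the vehicle library (267 of 463, 53.0 to 62.2%). These intervals cover the counting of cells within 1 library each, and the shares were not compared by a test. When every cell was thinned to 5000 UMIs and the rule was applied again, the shares were 48.4% (154 of 318) and 47.6% (166 of 349). Of all kept barcodes, members were 9.34% and 12.3%, and microglia of both kinds were 15.5% and 21.3%. Members were also 55.0% and 65.3% of all kept barcodes with at least 5 cytokine UMIs. The rest were mainly barcodes with under 5 microglia UMIs, 204 and 125 of them, and few were set aside as cycling (21 and 14) or for border macrophage genes alone (2 and 3).

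The cytokine threshold ran through a continuous range of cells. Microglia just inside it, with 5 or 6 cytokine UMIs, numbered 31 and 25 and held Tnf at 341 and 361 CPM and the chemokine Ccl4 at 3964 and 4880 CPM. Microglia just outside it, with 3 or 4, numbered 44 and 41 and held Tnf at 264 and 195 CPM and Ccl4 at 2680 and 3801 CPM. At the microglia threshold, 15 and 6 members had only 5 or 6 microglia UMIs, and 14 and 11 barcodes with enough cytokine UMIs missed it with 3 or 4. Members had a median of 18.5 and 22 cytokine UMIs, from 5 to 516 and from 5 to 400. The 14 members with the most in each library, the top 5%, held 33.7% and 27.6% of all cytokine UMIs of the members.

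**Figure D1:**
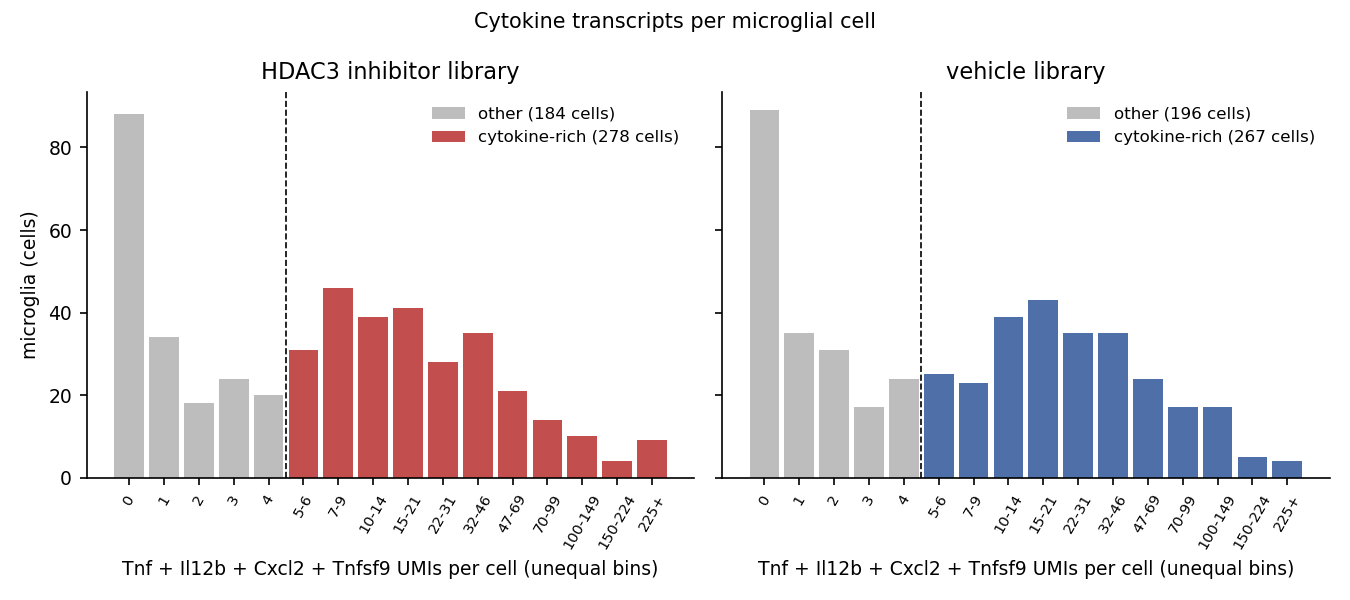
Number of microglia (vertical axis, cells) by the summed UMIs of Tnf, Il12b, Cxcl2 and Tnfsf9 per cell (horizontal axis, in unequal bins), 1 panel per library, with the dashed line at the threshold. Both libraries show 1 continuous distribution across the line, with 278 and 267 members to its right and 184 and 196 other microglia to its left.

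The label names microglia that transcribe Tnf, Il12b, Cxcl2 and Tnfsf9, and the cells carried these genes very unevenly. Tnf, the founding tumour necrosis factor (chr17:35199381-35202007, minus strand, mm10), stood at 1190 and 1298 CPM in members against 90.1 and 82.4 CPM in other microglia, and 97.8% and 97.0% of members had a UMI of it. Cxcl2, a chemokine that draws neutrophils (chr5:90903871-90905938, plus strand), stood at 1318 and 1091 CPM against 12.7 and 13.3 CPM, with a UMI in only 56.5% and 60.7% of members. Tnfsf9, the costimulatory ligand 4-1BBL (chr17:57105325-57107757, plus strand), stood at 148 and 99.9 CPM against 5.36 and 5.82 CPM, with a UMI in 49.3% and 44.9% of members. Tnf and Cxcl2 thus supplied nearly all of the counts that chose the cells.

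Il12b, the p40 chain shared by interleukins 12 and 23 (chr11:44400063-44414033, plus strand), was rare. It stood at 34.6 and 36.2 CPM in members, from 11 and 9 cells, which is 3.96% and 3.37% of them. None of the other microglia had a UMI of it, which, counted as 3 cells of the total, allows a share of up to 1.63% and 1.53% of cells with one. Against a floor of 3 UMIs over the other microglia, the members' level was at least 23.7-fold and at least 29.0-fold higher. The label therefore held for Tnf in nearly all members, Cxcl2 in 157 of 278 and 162 of 267, Tnfsf9 in 137 of 278 and 120 of 267, and Il12b in few. No member was brought in by Il12b: a rule without that gene found the same 278 and 267 cells.

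Some UMIs of abundant cytokine transcripts can come from free RNA, so oligodendrocytes, which should lack these genes, were read as a reference. Among 403 and 218 oligodendrocyte barcodes, with a median of 10968 and 15062 UMIs, 1.49% and 5.50% had a Tnf UMI and 3.72% and 6.42% a Cxcl2 UMI. The 47.8% and 51.0% of other microglia with a Tnf UMI lie far above that reference. The 8.70% and 10.7% of other microglia with a Cxcl2 UMI lie closer to it. Other cell types varied in this share. It was 8.32% and 8.80% in endothelial, 9.52% and 5.08% in astrocyte and 3.28% and 7.69% in fibroblast barcodes. Barcodes of T and NK cells had 2.08% and 0%, and those of monocytes 24.7% and 26.3%. Neutrophil barcodes carried Cxcl2 as well, with a UMI in 43.5% and 41.5% of them and a level of 416 and 504 CPM.

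When each gene was left out of the rule and the cells were chosen by the remaining 3, the gene that had been left out was still higher in the chosen cells. Tnf stood at 1310 against 528 CPM in the HDAC3 inhibitor library, a ratio of 2.48 (2.34 to 2.63), and at 1424 against 535 CPM in the vehicle library, a ratio of 2.66 (2.52 to 2.81). Cxcl2 was 5.13-fold (4.71 to 5.58) and 4.22-fold (3.89 to 4.58) higher. Tnfsf9 was 11.1-fold (7.64 to 16.7) and 12.0-fold (7.70 to 19.9) higher.

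None of the 4 microglia genes of the rule differed by 1.5-fold between members and other microglia. P2ry12 stood at 481 against 388 CPM and at 540 against 478 CPM. Tmem119 stood at 365 against 391 and at 417 against 403 CPM, and Siglech at 315 against 326 and at 356 against 357 CPM. Gpr34, a lysophosphatidylserine receptor, stood at 477 against 347 and at 478 against 435 CPM. Both groups had to pass the same threshold on these 4 genes. Of 29 further homeostatic microglia genes, 28 passed the filter on low values (at least 50 UMIs and 20 CPM in each library). None of the 28 was past 1.5-fold in both libraries in either direction, where 2.29% of all genes compared were higher and 1.74% lower. The median log2 ratio of the 29, members over other microglia, was 0.15 and 0.14, beside -0.04 and -0.05 over all genes compared. Csf1r, the receptor on which microglia depend to survive, stood at 1288 against 1040 and at 1581 against 1321 CPM.

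Markers of other cell types were counted in the members. The median member had 0 UMIs summed over 10 border macrophage markers, 0 over 10 markers of T and NK cells and 0 over 8 endothelial markers in both libraries. It had 0 and 1 over 10 monocyte markers, 3 and 5 over 10 neutrophil markers, 3 and 4 over 8 oligodendrocyte markers, 2 and 3 over 10 dendritic cell markers, and 1 and 2 over 8 astrocyte markers. Summed levels in members against other microglia were 192 against 388 and 172 against 385 CPM for monocyte markers, and 204 against 354 and 74.9 against 275 CPM for border macrophage markers. They were 319 against 936 and 440 against 802 CPM for oligodendrocyte markers, 201 against 189 and 303 against 332 CPM for neutrophil markers, and 126 against 66.2 and 141 against 85.3 CPM for astrocyte markers. Dendritic cell markers summed to 254 against 209 and 305 against 258 CPM, and markers of T and NK cells to 19.3 against 20.5 and 14.2 against 25.0 CPM. Mgl2 was at 0 in the members of both libraries, as were Cd209a and Xcr1 of dendritic cells and Cd3g, Trac, Trbc2, Nkg7 and Gzma of T and NK cells. In the HDAC3 inhibitor library endothelial markers summed to 153 CPM in members against 27.3 in other microglia, and 1 cell held 91.4% of the members' Cldn5 UMIs. In the vehicle library they summed to 25.4 against 37.4 CPM. The doublet caller Scrublet marked 17 and 6 of all kept barcodes, too few to have worked, so doublets were not removed.

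Across 5070 genes compared, 116 (2.29%) were higher in members than in other microglia by at least 1.5-fold in both libraries, and 88 (1.74%) were lower. These shares describe cells that the rule had already split, and the 8 genes of the rule were left out of them. The log2 ratios of the 2 libraries had a Pearson r of 0.68 across the 5070 genes, which are not independent replicates. Only 8 genes passed 1.5-fold in opposite directions. No single cell supplied over 50% of a library's member UMIs for any of the 116 higher genes, whereas 1 cell supplied over 50% of the other microglia's UMIs in a library for 22 of the 88 lower genes. The lower genes also depended on which cells were compared. With a microglia threshold of 10, 75 genes were lower, 33 of them among the 88. In cells of 5000 to 20000 UMIs, 90 were lower, 32 of them among the 88. The higher genes kept 85 and 78 of the 116 in these settings. Cells were also thinned to 2000 UMIs each to even out depth, after the rule had chosen them on their full counts. Then 83 genes were higher, 67 of them among the 116, and 23 were lower, 8 of them among the 88. The part of the rule's choice of deeper cells was not removed by this. With a cytokine threshold per 10000 UMIs, which scales with the depth of a cell, 182 genes were higher and 110 of the 116 were among them. Depth still differed along that scale. Microglia with no cytokine UMI had a median of 7572 and 7808 UMIs. Those with up to 5 per 10000 had 11724 and 13226.5, and those above 40 had 15488 and 17029.5.

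The gene lists are described by how many of the genes that passed the filter on low values were past 1.5-fold in both libraries, to be read against the 2.29% and 1.74% of all genes, and by the median over the genes with at least 20 UMIs in each library. CC chemokines had the highest median of the 21 lists in both libraries, leaving aside the genes of the rule and the cell type markers. Ccl4 and Ccl3, which attract other immune cells, were the most abundant, with Ccl4 at 6541 against 1624 CPM (ratio 4.03, 3.89 to 4.18) and at 6721 against 2037 CPM (3.30, 3.20 to 3.40). Ccl3 stood at 3204 against 736 CPM (4.35, 4.13 to 4.59) and at 3450 against 994 CPM (3.47, 3.33 to 3.63). Ccl2, which recruits monocytes through Ccr2, stood at 198 against 74.0 CPM and at 174 against 41.2 CPM, and its relative Ccl12 at 554 against 158 and at 469 against 197 CPM. In all, 4 of 7 CC chemokines that passed the filter were past 1.5-fold higher in both libraries and none was lower, and the median log2 ratio of 8 was 1.58 and 1.49.

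Cxcl10, an interferon-inducible chemokine that attracts T cells through Cxcr3, stood at 727 against 147 CPM (4.96, 4.41 to 5.61) and at 654 against 123 CPM (5.33, 4.73 to 6.03). It was the only one of 4 CXC and other chemokines outside the rule that passed the filter to be higher by 1.5-fold in both libraries. Pf4, also a border macrophage gene, was lower, at 50.9 against 92.1 and at 19.3 against 67.0 CPM. The median of 5 genes of this list was 0.68 and 0.39, with 3 above 0 in both libraries and 2 below.

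The interleukin 1 genes Il1b and Il1a were higher in both libraries. Il1b stood at 1380 against 441 CPM (3.13, 2.92 to 3.36) and at 1670 against 658 CPM (2.54, 2.40 to 2.68), and Il1a at 1207 against 364 (3.32, 3.07 to 3.59) and at 1359 against 490 CPM (2.77, 2.60 to 2.95). Il1rn, the natural antagonist of the interleukin 1 receptor, stood at 51.7 against 12.2 and at 67.2 against 14.6 CPM, with a UMI in 59 and 71 members, where Il1b had one in 216 and 224. Nlrp3, the sensor of the inflammasome that matures interleukin 1 beta, stood at 434 against 178 and at 432 against 179 CPM. Casp4, an inflammatory caspase, was the fifth of 8 filtered genes of this list to pass 1.5-fold in both libraries, at 151 against 91.1 and at 174 against 115 CPM. The median of 11 was 0.44 and 0.31.

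Of 9 other cytokines and growth factors that passed the filter, 3 were higher and none was lower, and the median of 12 was 0.46 and 0.51. Csf1, a survival factor for microglia themselves, stood at 206 against 77.9 and at 218 against 76.1 CPM. Gdf15, a stress-induced hormone of the TGF-beta family, stood at 327 against 118 and at 297 against 69.5 CPM, and Hbegf, a ligand of the epidermal growth factor receptor, at 31.8 against 11.7 and at 41.3 against 9.99 CPM. Tgfb1, which helps to keep microglia in their homeostatic state, was at 314 against 264 and at 353 against 288 CPM and did not pass 1.5-fold. Of 9 TNF family genes outside the rule that passed the filter, 2 were higher, the signalling adaptor Traf3 and the apoptosis inhibitor Cflar, and none was lower, with a median of 0.16 and 0.17 over 17. The TNF receptor gene Tnfrsf1a stood at 98.6 against 96.4 and at 111 against 116 CPM.

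Within the NF-kappaB system, 1 subunit and 4 regulators passed 1.5-fold in both libraries. Nfkbia, which holds NF-kappaB in the cytoplasm, stood at 1623 against 558 CPM (2.91, 2.73 to 3.10) and at 1497 against 550 CPM (2.72, 2.57 to 2.89). Nfkbiz, a nuclear cofactor needed for secondary response genes, stood at 688 against 234 and at 814 against 301 CPM, and Nfkbid at 127 against 55.5 and at 159 against 84.0 CPM. Tnfaip3, the ubiquitin-editing enzyme A20 that ends the signal, stood at 312 against 96.9 CPM (3.22, 2.77 to 3.75) and at 334 against 104 CPM (3.21, 2.80 to 3.68). Of the subunits, Rel stood at 526 against 319 and at 553 against 353 CPM. Nfkb1 stood at 240 against 169 and at 298 against 208 CPM and did not pass. In all, 5 of 18 filtered genes of this list were higher and none was lower, with a median of 0.57 and 0.41 over 20.

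Among 20 NF-kappaB target and surface genes that passed the filter, 14 were higher by 1.5-fold in both libraries and none was lower, and the median log2 ratio of 21 was 1.04 and 1.08. Acod1, the enzyme that makes itaconate, had the highest ratios of all genes outside the rule, at 34.1 against 1.46 CPM (23.3, 7.82 to 115) and at 38.3 against 3.74 CPM (10.2, 5.26 to 22.7). It rested on few cells, with a UMI in 11.5% and 15.7% of members. Slc7a11, the cystine importer, stood at 92.5 against 19.0 and at 85.9 against 23.3 CPM. Ptgs2, the inducible cyclooxygenase of prostaglandin synthesis, stood at 133 against 52.6 and at 126 against 28.3 CPM. The adhesion molecule Icam1 stood at 403 against 229 and at 525 against 336 CPM, and the surface protein Cd83 at 1050.5 against 511 and at 1197 against 643 CPM.

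The feedback brakes of cytokine signalling had 4 of 12 filtered genes past 1.5-fold higher and none lower, with a median of 0.58 and 0.41 over 16. Dusp2, a phosphatase that turns off MAP kinases, led them at 471 against 107 CPM (4.42, 3.84 to 5.11) and at 462 against 110 CPM (4.19, 3.68 to 4.78). Zfp36, which destroys Tnf messenger RNA, stood at 665 against 335 and at 729 against 388 CPM. Dusp1 stood at 590 against 317 and at 683 against 358 CPM, and Socs3, an inhibitor of cytokine receptor signalling, at 401 against 186 and at 435 against 224 CPM.

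The other genes with the highest ratios had varied roles. Mir155hg, the host transcript of miR-155, stood at 48.6 against 7.79 and at 53.2 against 11.2 CPM. Ch25h, which makes 25-hydroxycholesterol, stood at 55.7 against 8.28 and at 44.9 against 12.9 CPM. Cd274, the inhibitory ligand PD-L1, stood at 61.4 against 18.0 and at 52.9 against 17.1 CPM. Clcf1, a cytokine of the interleukin 6 family, stood at 34.9 against 10.7 and at 45.8 against 10.4 CPM, and Cdk5r1, an activator of the kinase Cdk5, at 43.1 against 12.7 and at 49.3 against 14.98 CPM. The anti-apoptotic gene Bcl2a1a stood at 610 against 180 and at 672 against 209 CPM, and its split from its near-identical copies Bcl2a1b and Bcl2a1d is uncertain. Mt3, a metallothionein, stood at 40.6 against 13.6 and at 42.6 against 13.7 CPM, beside 2342 CPM in astrocyte barcodes, and the part of astrocyte RNA in it was not tested.

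**Figure D2:**
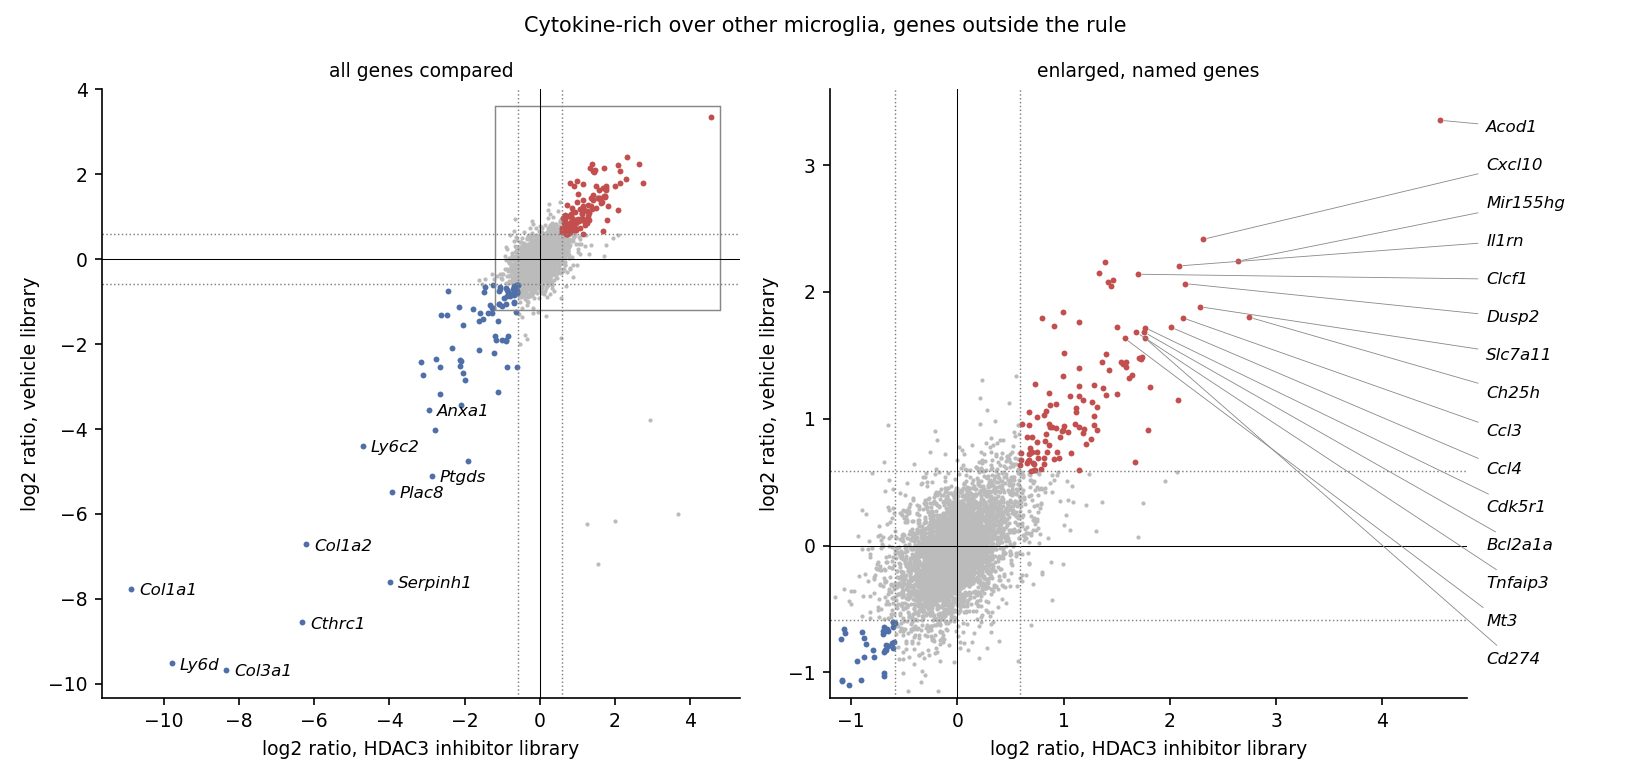
Log2 ratio of cytokine-rich over other microglia in the HDAC3 inhibitor library (horizontal axis) and in the vehicle library (vertical axis), 1 point per gene for the 5070 genes compared, with an enlarged panel of named genes. The 116 genes past 1.5-fold higher in both libraries include Ccl3, Ccl4, Cxcl10, Dusp2 and Tnfaip3, and the genes with the lowest ratios, such as Ly6d and Col1a1, rest on few cells.

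Lists of upstream and stress genes were read in the same way. Of 25 immediate-early genes that passed the filter, 6 were higher by 1.5-fold in both libraries (Egr3, Ier3, Nr4a1, Maff, Csrnp1 and Ppp1r15a) and none was lower, with a median of 0.45 and 0.26 over 28. These genes also respond to the preparation of single cells, and its part in the members' profile was not tested. Of 16 filtered heat shock and stress genes only Dnajb4 was higher in both, with a median of 0.07 and -0.18 over 18. Of 11 filtered Toll-like receptor genes and adaptors only Tlr2 passed, at 499 against 309 and at 542 against 362 CPM, with a median of 0.27 and 0.39 over 18. Interferon response genes had 4 of 16 that passed the filter higher, the ubiquitin-like Isg15 at 389 against 117 and at 327 against 116 CPM, with Ifit2, Irf1 and Slfn2, and a median of 0.47 and 0.07 over 23. The HDAC3 corepressor list had none of 7 filtered genes past 1.5-fold, and Hdac3 itself was sparse, at 12.0 against 12.7 and at 14.9 against 19.6 CPM. Complement and Fc receptor genes had none of 12 filtered genes past 1.5-fold, and C1qa stood at 8341 against 7688 and at 8748 against 8135 CPM.

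**Figure D3:**
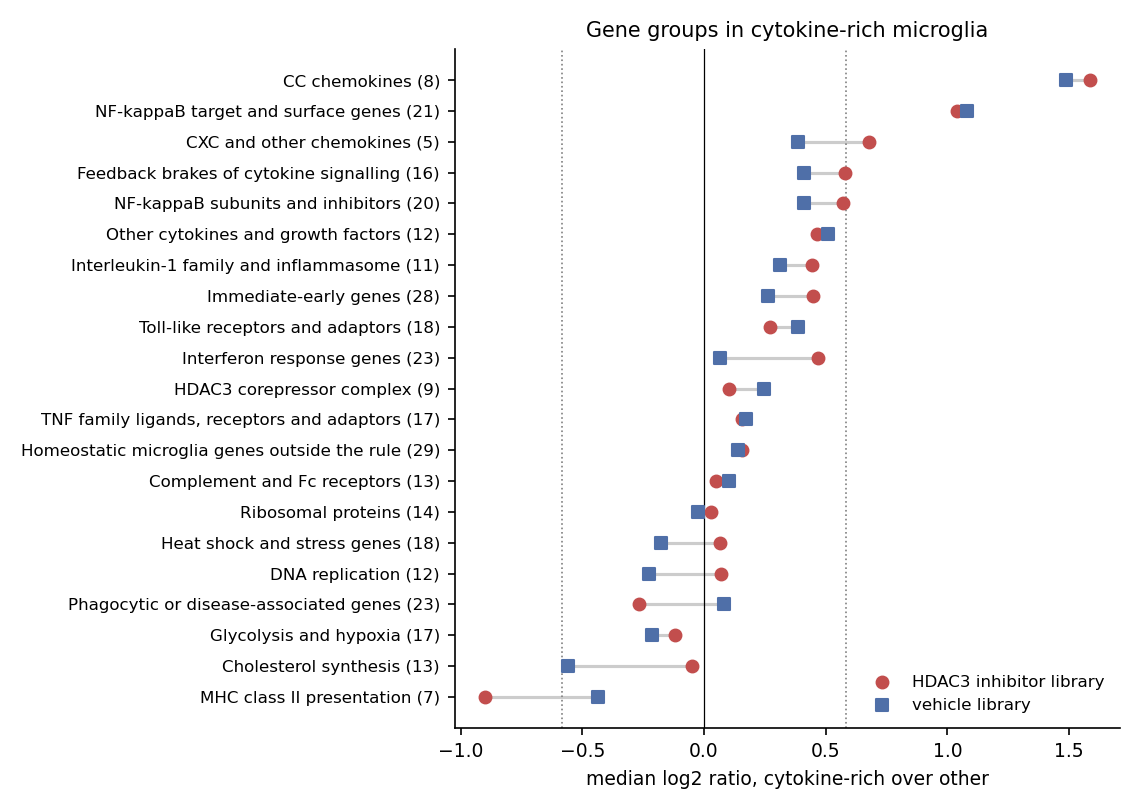
Median log2 ratio of cytokine-rich over other microglia (horizontal axis) for 21 gene groups (vertical axis, with the number of measured genes in parentheses), a circle for the HDAC3 inhibitor library and a square for the vehicle library. Dotted lines mark 1.5-fold, and CC chemokines (1.58 and 1.49) and NF-kappaB target and surface genes (1.04 and 1.08) lie beyond the upper line in both libraries.

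Of 21 filtered phagocytic or disease-associated genes, Lgals3, Fabp5 and Lyz2 were lower by 1.5-fold in both libraries and Ch25h was higher, with a median of -0.27 and 0.08 over 23. Lyz2, lysozyme, stood at 3846 against 10089 CPM and at 2978 against 7134 CPM. Apoe, the main lipid carrier of the brain, stood at 25001 against 39816 and at 28929 against 39782 CPM, and passed 1.5-fold in the HDAC3 inhibitor library alone. Spp1, osteopontin, stood at 8777 against 14913 and at 13124 against 14862 CPM. As given above, the set of lower genes depended on which cells were compared.

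The MHC class II genes H2-Aa, H2-Ab1 and H2-Eb1 were lower in members, with H2-Aa at 5.27 against 47.2 and at 6.88 against 36.6 CPM, and the median of 7 measured genes was -0.90 and -0.43. Part of this difference rested on few cells among the other microglia. There, 5 and 7 cells had no P2ry12, Tmem119 or Gpr34 UMI and passed the microglia threshold on Siglech alone, a gene that plasmacytoid dendritic cells also transcribe, while none of the members did. These cells held 33.0% and 55.7% of the H2-Aa UMIs of the other microglia, and 87.1% of those of Ly6c2 in the vehicle library. Without them the median of the class II list was -0.38 and 0.05.

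Several genes with the lowest ratios rested on few cells. Ly6d, a surface gene of lymphoid and plasmacytoid dendritic precursors, had 0 UMIs in members against 228 in other microglia, at least 148-fold lower, and 1 against 403 in the vehicle library. The cells that passed on Siglech alone held 50.4% and 66.7% of the Ly6d UMIs and 64.7% and 76.9% of those of the myeloid gene Plac8. The collagen genes Col3a1 and Col1a1 and the fibroblast gene Cthrc1 each had at least 99.2% of their UMIs in 1 other microglial cell in each library. Ptgds, a prostaglandin D synthase, had 87 UMIs against 330 and 52 against 980, and oligodendrocyte barcodes held it at 14090.1 CPM. Col1a2, Serpinh1, Ly6c2 and Anxa1 complete the 10 lowest. Without the cells that also passed the marker threshold of another cell type, which left 273 of the 278 and 263 of the 267 members, 111 genes were higher, 102 of them among the 116, and 50 were lower, 33 of them among the 88.

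The members differed among themselves in their Cxcl2 counts. Tnf outnumbered Cxcl2 in 196 and 201 members, and Cxcl2 outnumbered Tnf in 79 and 64. At least 5 Tnf UMIs were present in 243 and 245 members and at least 5 Cxcl2 UMIs in 115 and 114. Cells with UMIs of Tnf and of no other cytokine of the rule numbered 67 and 65, and cells with Cxcl2 alone 5 and 6. Tnf had a median of 10 and 15 UMIs per member and reached 129 and 155, while Cxcl2 had a median of 1 and 2 and reached 432 and 297.

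**Figure D4:**
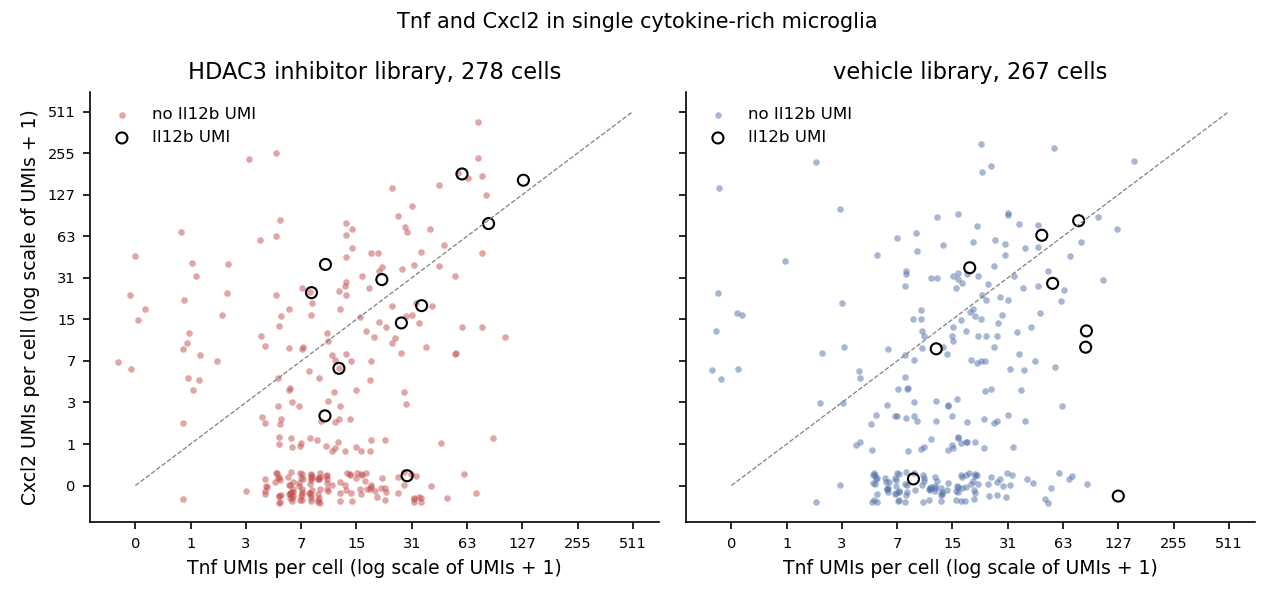
Cxcl2 UMIs (vertical axis) against Tnf UMIs (horizontal axis) per cytokine-rich microglial cell, both on a log scale of UMIs + 1 with a small random shift, 1 panel per library, with open circles for the 11 and 9 cells that had an Il12b UMI. A dense band of cells carries Tnf with no Cxcl2 UMI, and few cells carry Cxcl2 with no Tnf.

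Members with at least 5 Cxcl2 UMIs (115 and 114) were compared with members that had none (121 and 105). The rule bears on this split, since a member with no Cxcl2 UMI had to reach the threshold on Tnf, Tnfsf9 or Il12b. The Cxcl2-high members were deeper, with a median of 15064 and 18403 UMIs against 11205 and 12176. Of 4964 genes compared, 92 (1.85%) were higher by 1.5-fold in both libraries in the Cxcl2-high members and 141 (2.84%) were lower. Cxcl1, a neutrophil chemokine encoded near Cxcl2 on chromosome 5, had the highest ratios, at 173 against 3.42 CPM and at 34.5 against 0.727 CPM. In the vehicle library these levels came from 78 against 1 UMIs, and 1 cell held most of the Cxcl1 UMIs of its members. Ptgs2 stood at 190 against 60.8 and at 202 against 47.3 CPM, Acod1 at 63.1 against 8.20 and at 58.4 against 20.4 CPM, and Il1b at 1858 against 948 and at 1967 against 1435 CPM.

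The Cxcl2-high members also carried more of several macrophage genes. Ms4a7, which marks macrophages of the borders and of blood origin, stood at 279 against 21.9 and at 90.7 against 2.18 CPM, and Pf4 at 72.5 against 13.7 and at 32.3 against 2.91 CPM. Lyz2 stood at 5578 against 1896 and at 4523 against 1092 CPM, and the growth factor Igf1 at 135 against 48.5 and at 200 against 49.5 CPM. The microglia genes of the rule were lower, P2ry12 at 392 against 566 and at 435 against 640.1 CPM and Tmem119 at 302 against 461 and at 347 against 530.2 CPM. The part of blood-derived or border macrophages among the Cxcl2-high members was not tested.

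In the same split Tnf stood at 1349 against 1106 CPM and at 1347 against 1363 CPM, values that the rule fixes in part, as said. In cells chosen without Tnf in the rule it was 2.48-fold and 2.66-fold higher, as given above. Ccl3 stood at 3087 against 3463 and at 3328 against 3785 CPM and Ccl4 at 6481 against 7126 and at 6537 against 7218 CPM, and the part of the rule in these was not tested. The interferon-induced genes Ifit1, Ifit2 and Ifit3 were lower in Cxcl2-high members, Ifit3 at 32.9 against 125 and at 28.3 against 79.3 CPM. The AP-1 gene Jun stood at 498 against 995 and at 499 against 1198 CPM. Slc2a5, a fructose transporter typical of microglia, stood at 24.0 against 56.7 and at 23.9 against 56.7 CPM.

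Il12b was found in very few members, with unequal counts. The 11 cells of the HDAC3 inhibitor library held 58, 17, 17, 10, 9, 9, 7, 7, 2, 1 and 1 Il12b UMIs, and the 9 cells of the vehicle library held 44, 33, 26, 17, 14, 12, 9, 2 and 1. A single cell held 42.0% and 27.8% of the total. In these cells Tnf stood at 2207 CPM against 1139 in the remaining members and at 2751 against 1233 CPM. Il1b stood at 3026 against 1297 and at 3732 against 1578 CPM, and Ccl4 at 8619 against 6436 and at 13164 against 6431 CPM. Not every cytokine was higher in them, with Ccl5 at 172 against 198 and at 219 against 195 CPM and Il6 at 20.9 against 22.4 and at 37.3 against 15.6 CPM. Their P2ry12 level was 344 against 488 and 363 against 548 CPM. Il12a, the partner chain that p40 needs to form interleukin 12, had 0 UMIs in the members of the HDAC3 inhibitor library and 1 UMI in those of the vehicle library. Il23a, the partner in interleukin 23, had 6 UMIs in 1 Il12b cell of the HDAC3 inhibitor library and none in those of the vehicle library. Outside the members, Il12b had 3 UMIs in 3 barcodes of the HDAC3 inhibitor library and 110 UMIs in 2 barcodes of the vehicle library.

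All microglia, members and others, were also grouped by cytokine UMIs per 10000 UMIs of the cell: none, up to 5, 5 to 10, 10 to 20, 20 to 40 and above 40. Ccl4 stood at 633, 2256, 4882, 6680, 8652 and 9193 CPM over these steps in the HDAC3 inhibitor library and at 891, 2651, 4805, 5943, 8070 and 10863 CPM in the vehicle library. It was higher at each step in both libraries, and so was Dusp2, from 43.8 to 776 and from 73.2 to 624 CPM. Ccl3 went from 319 to 4580.1 and from 530.4 to 5183 CPM. P2ry12 did not follow this order and was highest in the middle, at 252, 404, 546, 641, 529 and 361 CPM and at 420, 455, 564, 656, 559 and 487 CPM. The median UMIs per cell differed as well, 7572 and 7808 in the cells with no cytokine UMI and 15488 and 17029.5 in those above 40. The steps are made from the cytokine counts themselves, and the cells of a step share a library.

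The cytokine genes of the rule, on whose counts the members were chosen, were also set side by side between the libraries. Tnf was at 1190 CPM with the HDAC3 inhibitor and 1298 CPM with vehicle, a ratio of 0.917 (0.882 to 0.953). Cxcl2 was at 1318 and 1091 CPM, a ratio of 1.21 (1.16 to 1.26), and Il12b at 34.6 and 36.2 CPM, a ratio of 0.956 (0.755 to 1.21). Tnfsf9 was at 148 and 99.9 CPM, a ratio of 1.49 (1.31 to 1.69), just under the 1.5-fold used here. In microglia thinned to 5000 UMIs, 25.2% and 16.0% had a Tnfsf9 UMI, 80.2% and 71.3% a Tnf UMI and 30.8% and 32.4% a Cxcl2 UMI. Ccl3 and Ccl4 had ratios of 0.929 (0.907 to 0.951) and 0.973 (0.957 to 0.990), Il1b of 0.826 (0.797 to 0.856) and Cxcl10 of 1.11 (1.06 to 1.17). None of these genes passed 1.5-fold, and how far 2 libraries of 1 treatment would differ was not measured. Hdac3 had a ratio of 0.808 (0.545 to 1.19), which does not bear on an inhibitor of the enzyme.

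Across 5173 genes compared between the libraries within members, 82 (1.59%) were higher by 1.5-fold with the HDAC3 inhibitor and 74 (1.43%) were lower. In the other microglia 12 of the 82 were also higher and 20 of the 74 also lower past 1.5-fold. The share of all genes past 1.5-fold in the other microglia is not given here, so these overlaps lack a background to be read against. The sets were sensitive to how cells were weighed: with cells thinned to 2000 UMIs, 112 genes were higher, 9 of them among the 82, and 158 lower, 14 of them among the 74. They also changed without the few members that passed the marker threshold of another cell type. Then 57 genes were higher, 50 of them among the 82, and 75 lower, 61 of them among the 74. The endothelial markers Cldn5, Flt1 and Ly6c1 were among the 82. Of the 82, 4 were haemoglobin genes, with Hbb-bs at 3809 UMIs in members of the HDAC3 inhibitor library and 65 in those of the vehicle library, against 491 and 2585 in other microglia. Red cell RNA thus lay in opposite groups of the libraries, and its part in other differences was not tested.

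Among genes higher with the HDAC3 inhibitor, Cxcl1 stood at 84.8 and 18.3 CPM (4.62, 3.61 to 5.98), and 1 cell held 52.5% of its UMIs in the vehicle members. Ms4a7 stood at 152 and 47.7 CPM (3.18, 2.71 to 3.74), with a ratio of 1.55 in other microglia, and Pf4 at 50.9 and 19.3 CPM (2.64, 2.04 to 3.45). Both are border macrophage genes, but Pf4 is not among the 10 border macrophage markers counted here. Those markers summed to 204 and 74.9 CPM in members, of which Ms4a7 was 152 and 47.7 CPM. Ccnd1, a G1 cyclin that microglia also transcribe outside the cell cycle, stood at 88.5 and 40.8 CPM (2.17, 1.81 to 2.61), with a ratio of 1.24 in other microglia. Rsad2, the interferon-induced antiviral protein viperin, stood at 54.9 and 26.6 CPM (2.07, 1.64 to 2.61), with a ratio of 0.754 in other microglia, and 1 cell held 16.4% and 34.5% of its UMIs in members. Lgals1, a galectin, stood at 214 and 98.6 CPM, Cybb, the catalytic subunit of the phagocyte NADPH oxidase, at 144 and 74.3 CPM, and the redox protein Txn1 at 202 and 111 CPM. Pltp, a phospholipid transfer protein, stood at 54.4 and 13.1 CPM, but 1 cell held 67.3% of its UMIs in the HDAC3 inhibitor members. Dctpp1, a nucleotide pyrophosphatase, stood at 55.7 and 30.0 CPM.

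Among genes lower with the HDAC3 inhibitor, Apoc1, an apolipoprotein, stood at 134 and 352 CPM (0.381, 0.345 to 0.421). Lag3, an inhibitory receptor, stood at 163 and 287 CPM (0.569, 0.517 to 0.626), and its ratio of 0.594 in other microglia was close to that. Col27a1 had 0.588 (0.491 to 0.702) in members and 0.572 in other microglia, and the RNA-binding gene Rbpms 0.595 (0.482 to 0.733) and 0.407. The immediate-early gene Egr3 stood at 30.1 and 62.1 CPM (0.485, 0.387 to 0.603), Man2b2, a lysosomal mannosidase, at 31.3 and 54.5 CPM, and the transcription factor Sall3 at 30.8 and 51.1 CPM. Cd5l, a macrophage protein, stood at 47.4 and 84.1 CPM, with 42.3% and 48.8% of its UMIs in 1 cell of each library. S100a8 and S100a9, the calprotectin genes of neutrophils, stood at 25.6 and 58.2 CPM and at 38.9 and 79.1 CPM. Their ratios of 0.477 and 0.432 in other microglia were as low, neutrophil barcodes held S100a8 at 138659 CPM, and the part of neutrophil RNA in these values was not tested.

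**Figure D5:**
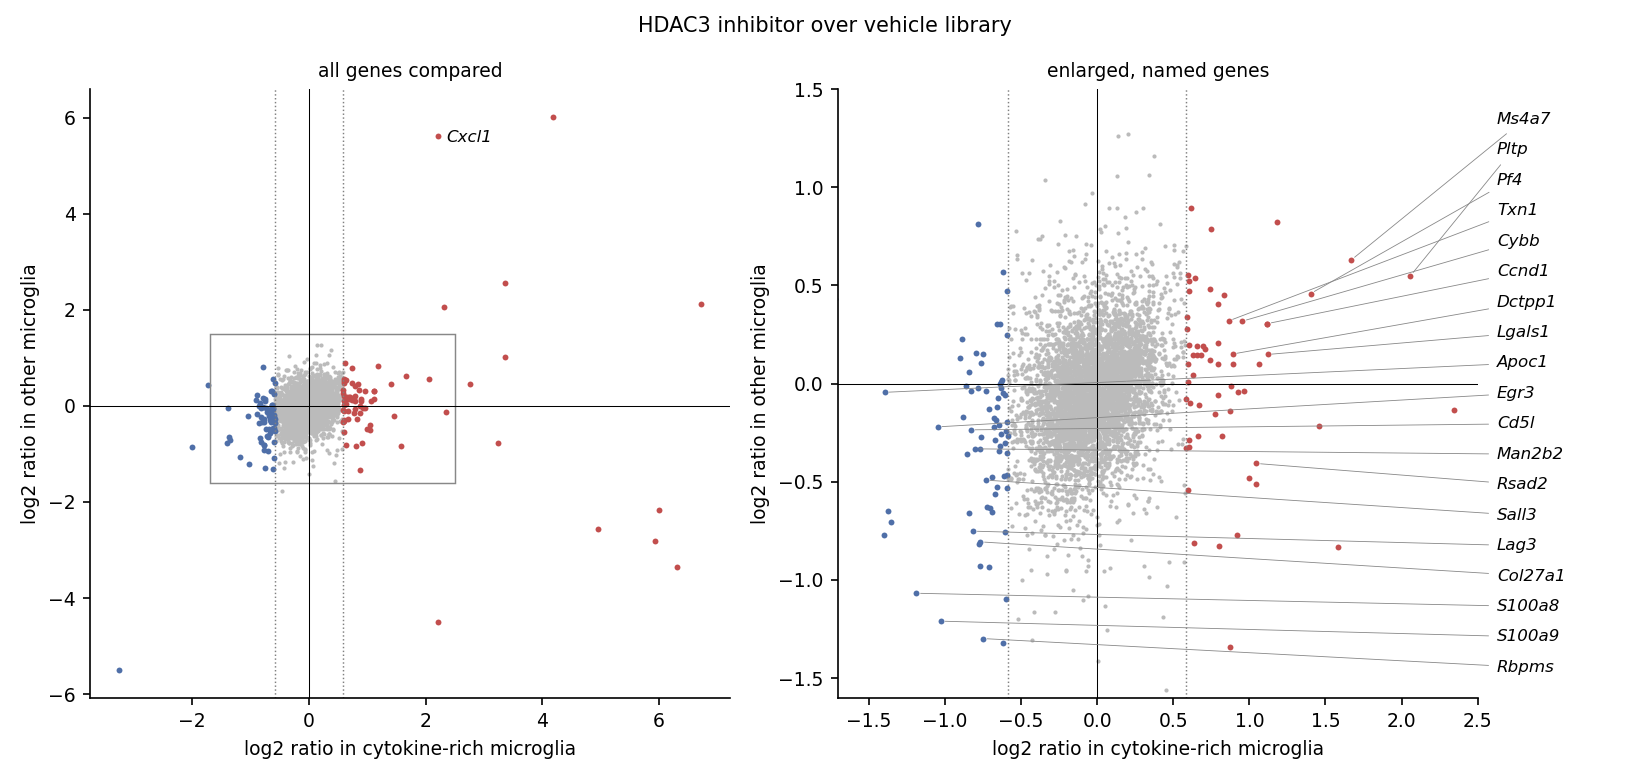
Log2 ratio of the HDAC3 inhibitor over the vehicle library in cytokine-rich microglia (horizontal axis) and in other microglia (vertical axis). Each point is 1 of 5164 genes compared that had at least 20 UMIs summed over the other microglia of both libraries. An enlarged panel shows named genes. Lag3 and Col27a1 lie low on both axes, whereas Apoc1 is low in cytokine-rich microglia alone (0.381 against 0.970 as ratios).

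Between the libraries the median log2 ratio of all genes compared was -0.03, and 45.6% of them lay above 0. The medians of inflammatory lists were -0.04 for CC chemokines, -0.17 for the interleukin 1 list, -0.08 for NF-kappaB subunits and inhibitors, -0.11 for NF-kappaB targets and -0.12 for the feedback brakes. In the same order these lists had 8, 8, 18, 20 and 12 genes that passed the filter. One of these genes, Vcam1, was past 1.5-fold higher, at 94.5 and 55.2 CPM, and 1, Ccl7, was lower, at 7.02 and 28.2 CPM. Of all genes compared, 1.59% were higher and 1.43% lower. Homeostatic microglia genes had a median of -0.19, with 3 of 29 above 0, and -0.17 in other microglia. Interferon response genes had a median of 0.25, with 18 of 23 above 0, and Ifit1, Ifit2, Rsad2, Ifitm3 and Bst2, 5 of 18 that passed the filter, past 1.5-fold higher. CXC and other chemokines had a median of 0.60 over 5 genes, with Cxcl1, Cxcl14 and Pf4 past 1.5-fold higher. DNA replication genes had a median of 0.88 over 13 genes, of which 4 passed the filter on low levels, and 0.42 in other microglia. The rule had removed cells with at least 3 UMIs of Mki67 and Top2a, but not those with fewer. Ribosomal protein genes were all 14 above 0, with a median of 0.23 in members and 0.19 in other microglia.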

How the data were processed

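Cells of injured spinal cord were measured in 2 libraries, 1 per treatment. The authors deposited whole-number counts of UMIs per gene and barcode for each library, written by Cell Ranger 3.0.2 per the file headers. The submitters' processing notes also name Seurat and the build mm10. The members and the gene lists were chosen with earlier results of these data known. From the deposited counts, UMIs were summed over the cells of each group and library and scaled to CPM. A gene was compared between members and other microglia with at least 50 UMIs over both groups and at least 20 CPM in the higher group, in each library, and a list gene entered a median with at least 20 UMIs. A gene was called past 1.5-fold, for members against other microglia in the same direction in both libraries. Intervals of ratios are exact conditional binomial, those of shares Clopper-Pearson, both at 95%. No test was possible with 1 library per group, so no p-value is given.

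Named genes are the 15 highest and 10 lowest of the first comparison by the smaller of both libraries' log2 ratios, and the 10 highest and 10 lowest between libraries with at least 50 CPM. They are also the genes of the rule, up to 4 abundant members of each list, list members past 1.5-fold in both libraries, and Hdac3. Csf1r, Ifit1, Ifit3, Jun, Ccl7, Il12a, Il23a, Hbb-bs and the genes of the Cxcl2 split were chosen after their values were seen. Promoters were taken from RefSeq (GRCm38.p6) and gene positions from GENCODE on mm10. Python 3.11.15, numpy 2.4.6, scipy 1.17.1, pandas 2.3.3 and scanpy 1.11.5 (for Scrublet) were used, and the ratio and list steps were tested on simulated counts. The labels and headers do not state how reads of near-identical genes were counted.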

Additional observations from a re-analysis of the deposited data

Results flagged for a closer look

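Apoc1 was lower in cytokine-rich than in other microglia with the HDAC3 inhibitor (log2 ratio -0.69) and higher with vehicle (0.66), a difference of -1.35. It was noted because the libraries went in opposite directions. A single cell held 29.1% of the Apoc1 UMIs of the vehicle members and 29.5% of those of the other microglia with the HDAC3 inhibitor. The difference was not tested.

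Ptgds was higher with the HDAC3 inhibitor in members (log2 ratio 0.87) and lower in other microglia (-1.34), a difference of 2.22. A single cell held 96.5% of its UMIs in the other microglia of the vehicle library and 64.5% in those of the HDAC3 inhibitor library. The difference was not tested.

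The median log2 ratio of the HDAC3 inhibitor over the vehicle library was flagged as differing between members and other microglia for 2 lists. The genes with enough UMIs were not the same number in both groups. For CXC and other chemokines the median was 0.60 over 5 genes in members and -0.01 over 6 genes in other microglia, a difference of 0.61. For interferon response genes it was 0.25 over 23 genes and -0.32 over 22 genes, a difference of 0.57. Neither difference was tested.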

How the results depend on the processing

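No paired analysis was possible because each group had 1 library. Of the alternatives tried, 109 values of the shares and counts kept within their limits and 49 moved. The alternatives without cells passing another type's markers, without cells passing on Siglech alone, and without the cell richest in a gene were chosen after seeing the data. The cause of each change was not tested, except that a fold of 2, no filter on low values and thinning change how many genes can be called. The share of microglia that were members was 69.7% and 66.5% with a cytokine threshold of 3, 43.5% and 47.3% with 10, 66.9% and 62.3% with a microglia threshold of 10, 48.4% and 47.6% after thinning to 5000 UMIs, and 29.4% and 28.3% with the rule without Tnf. In the HDAC3 inhibitor library it was 65.5% in cells of 5000 to 20000 UMIs and 54.8% without Cxcl2 in the rule.

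Genes higher and lower in members than in other microglia numbered 180 (higher) with a cytokine threshold of 3, 182 (higher) with a threshold per 10000 UMIs, 60 and 41 with the rule without Tnf, 51 and 46 at a fold of 2 and 997 and 1251 without a filter. Lower genes numbered 23 after thinning to 2000 UMIs and 50 without cells passing another type's markers. Genes higher and lower with the HDAC3 inhibitor numbered 176 and 137 with the rule without Tnf, 34 and 10 at a fold of 2 and 2956 and 2623 without a filter. Lower genes numbered 200 in cells of 5000 to 20000 UMIs, 114 with each cell weighted alike and 158 after thinning. Counts of lists leave out the genes of the rule and the cell type markers. Of the marker lists, astrocytes (1.11 and 1.01) and oligodendrocytes (-1.75 and -0.95) passed 1.5-fold in both libraries, and border macrophages (1.35), endothelial cells (2.65) and neutrophils (-0.80) between them. Lists with a median past 1.5-fold higher in members, 2 as reported, numbered 4 with a cytokine threshold of 3, 5 after thinning, and 1 in cells of 5000 to 20000 UMIs or with the rule without Tnf. Lists lower, 0 as reported, numbered 1 with a cytokine threshold of 3, in cells of 5000 to 20000 UMIs, without the 5% of members richest in cytokine UMIs, and with the rule without Cxcl2. Lists past 1.5-fold between the libraries, 2 as reported, numbered 0 after thinning or without the richest 5%, and 1 with cytokine thresholds of 3, of 10 or per 10000 UMIs, in cells of 5000 to 20000 UMIs, with cells weighted alike, with the rule without Cxcl2 or Tnfsf9, and with list genes of at least 100 UMIs.

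Log2 ratios of members over other microglia counted as reversed, for genes and for 1 list, were as follows. With a microglia threshold of 10 they were 0.077 for Col3a1, 1.81 for Col1a2, 3.25 for Serpinh1, 0.81 for Cthrc1 and 1.08 for Anxa1 in the HDAC3 inhibitor library, and 0.46 for both Col1a2 and Col1a1 in the vehicle library. In cells of 5000 to 20000 UMIs they were 0.36 for Col3a1, 0.91 for Ptgds, 2.10 for Col1a2, 2.68 for Serpinh1, 1.10 for Cthrc1 and a median of -0.23 for CXC and other chemokines with the HDAC3 inhibitor, and 0.67 for Col1a2 with vehicle. There, the ratio between the libraries was -0.21 for Pltp and 1.40 for Cd5l. Without cells passing another type's markers they were 0.50 for Col3a1, 1.24 for Plac8, 3.16 for Col1a2, 2.82 for Serpinh1 and 1.24 for Cthrc1 with the HDAC3 inhibitor, and 0.71 for Plac8 and 0.59 for Ly6d with vehicle. Without the cell richest in the gene they were 1.01 for Col1a2 and 3.11 for Serpinh1 with the HDAC3 inhibitor. Ptgds was at 3.59 with vehicle at a cytokine threshold of 3 and at 0.83 with the HDAC3 inhibitor without the Scrublet calls. No other value was counted as reversed. The vehicle median of the MHC class II list, given above, also changed sign without the cells passing on Siglech alone. It is not among those counted. Genes under about 20 CPM and lists of under 10 measured genes are limited by depth.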

Other observations

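Outside the members, 1 barcode of the vehicle library held 108 Il12b UMIs, more than any member, and 713 UMIs over the 4 cytokine genes. It had 17 UMIs over the 4 microglia genes and 8 over Mki67 and Top2a, so the rule set it aside as cycling. It held 0 UMIs of the dendritic cell genes Flt3 and Ccr7 and 1 of Fscn1. Another set-aside barcode of the same library held 2 Il12b UMIs, 133 cytokine UMIs and 64 UMIs over Mki67 and Top2a.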
